A study of Mus musculus with 9 samples.

Results

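Transcripts of 4 families of guidance cues and their receptors were followed through 3 structures of the embryonic mouse kidney. The genes were taken by a rule on names, set with earlier results of these data known. It took platform symbols that begin with Sema, Plxn, Epha, Ephb, Efna, Efnb, Slit, Robo, Ntn or Unc5 in the numbered form of each family. With 1 Affymetrix probe set standing for a gene, this gave 55 of the 12393 genes that the array annotation named singly. One of them, Unc50, shares only its first letters with the netrin receptors and encodes a trafficking protein, so it was set apart and 54 guidance genes remained, 31 ligands and 23 receptors. The renal vesicle, the first epithelial stage of a nephron, and the s-shaped body, the later stage that prefigures glomerulus and tubule segments, were microdissected, as was the collecting duct, which the submitters used as the reference. The 9 samples, 3 for each structure and 1 array each, were taken from wild-type kidneys of strain 129 mice at E14.5, which is Theiler stage 22. Renal vesicle and s-shaped body samples pooled 20 structures each, collecting duct samples were not pooled (a pool size of 1), and the submitters counted each sample as a biological replicate. Whether samples of a structure shared embryos was not stated, so the p-values measure the spread between these samples.

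Guidance cues were first described in growing axons, where they attract or repel the growth cone, and most of them also steer epithelial and endothelial cells. Semaphorins signal through plexins, the secreted class 3 members mostly with a neuropilin as co-receptor. Ephrins are bound to the cell surface and signal through Eph receptor tyrosine kinases on a neighbouring cell, Slits are secreted ligands of Robo receptors, and netrins act through Dcc, neogenin and the Unc5 receptors. In the kidney the Slit and Robo pair is known for limiting where the ureteric bud grows out, and semaphorins and ephrins are known in ureteric branching, glomerular vessels and podocytes.

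Of the 54 guidance genes 38 had a probe set above the median of its own array on at least 3 arrays and were tested, 22 ligands and 16 receptors. Values are log2(intensity + 26) after quantile normalization, on which the median of each array was 7.28, and a difference with an adjusted p under 0.05 (limma, Benjamini-Hochberg over 7998 genes) is called a change. At least 1 structure differed for 28 of the 38 genes by the F test, where 49.6% of all genes passed. Renal vesicle against collecting duct gave 19 changes (50.0%), with 9 genes higher and 10 lower in the vesicle, where 31.5% of all genes changed (15.6% higher, 15.9% lower). S-shaped body against collecting duct gave 18 (47.4%), with 10 genes up and 8 down in s-shaped body, where 32.8% of all genes changed (16.9% higher, 15.9% lower). S-shaped body against renal vesicle gave 21 (55.3%), with 11 genes higher and 10 lower in the later stage, where 36.3% of all genes changed (18.5% higher, 17.8% lower). The 3 arrays of one structure did not overlap those of the other for 12 genes upward and 12 downward in the first comparison, 12 and 13 in the second and 14 and 13 in the third, and for 43.3%, 43.9% and 52.9% of all genes. The median differences were 0.06, -0.09 and -0.03 log2 units over the tested guidance genes and 0.01, -0.03 and -0.03 over all genes. Ligands and receptors both moved in both directions. Of 22 ligands 4 were higher and 5 lower in renal vesicle against collecting duct, 6 and 6 in s-shaped body against collecting duct and 6 and 6 in s-shaped body against renal vesicle, and of 16 receptors 5 and 5, then 4 and 2, then 5 and 4. Of the tested genes 5 (Epha1, Epha4, Epha7, Sema3e and Sema6d) passed the intensity filter through a single structure, which favours a difference. Without the filter 20, 16 and 23 of all 54 genes changed in the 3 comparisons, where 20.0%, 22.4% and 23.9% of 12393 genes did, and 28 of 54 passed the F test, where 33.1% did. The first pair of comparisons shares the collecting duct arrays, and each pair of comparisons shares a structure.

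**Figure D1:**
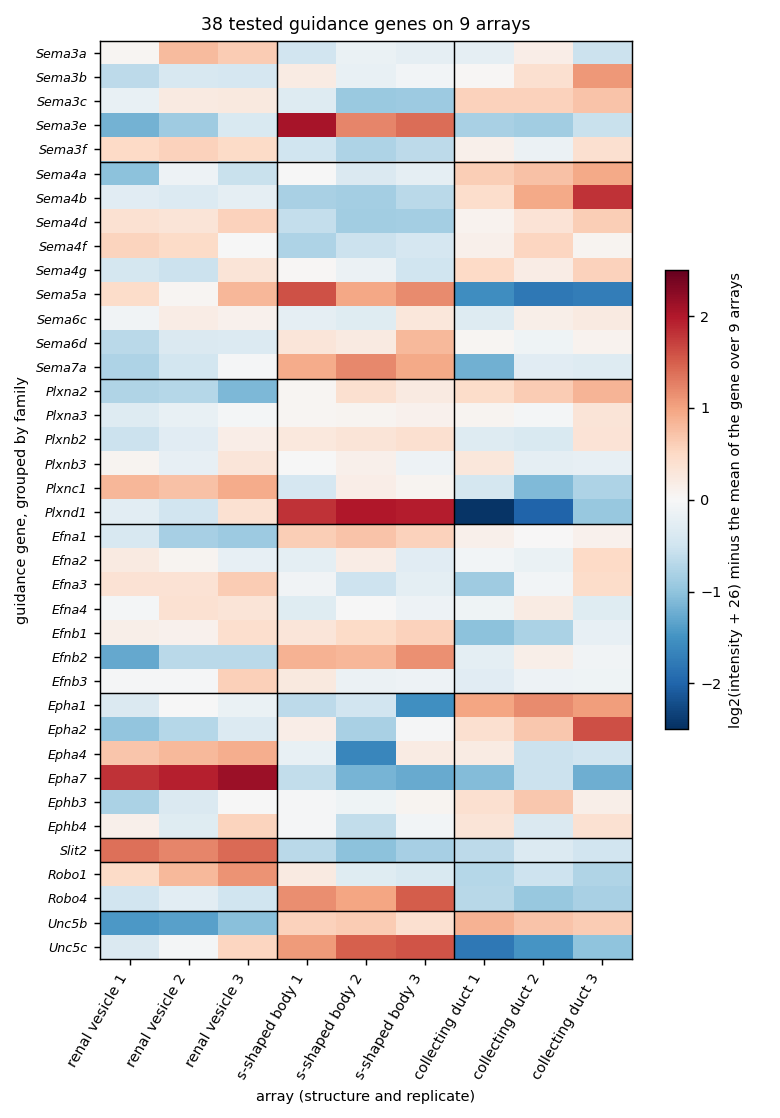
Heat map of the 38 tested guidance genes (rows, grouped by family) on the 9 arrays (columns), with colour giving log2(intensity + 26) minus the mean of the gene over 9 arrays. Slit2 and Epha7 are bright in the 3 renal vesicle arrays, and Sema3e, Plxnd1 and Robo4 in the 3 s-shaped body arrays.

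The arrays carried other cells besides the labelled epithelia. Summed deposited intensity of 10 endothelial marker genes was 9124 to 10740 in the s-shaped body, 548.2 to 925 in the renal vesicle and 620.5 to 939.7 in the collecting duct. All 8 tested endothelial markers were higher in the s-shaped body than in either other structure, while Tie1 was below the array median on all 9 arrays. The 8 stromal markers summed to 7506 to 8346 in the s-shaped body, 936.8 to 1554 in the renal vesicle and 480 to 759.1 in the collecting duct, with Dcn below the array median throughout, and all 6 tested stromal markers were higher in the s-shaped body. All 3 erythroid markers were also higher there. The 4 macrophage markers summed to 2856 to 3302 in the s-shaped body, 416.6 to 645.4 in the renal vesicle and 455 to 624.8 in the collecting duct. The 1 tested, Csf1r, was higher in the s-shaped body, while Cd68 and Aif1 were below the array median throughout. Neural markers, which would accompany nerve fibres, summed to between 446.1 and 715.2 on every array, and Tubb3 and Elavl4 were below the array median throughout. Markers of the labelled structures followed their labels in part. Of 6 tested nephron markers 5 were higher in renal vesicle than in collecting duct, and all 6 were lower in s-shaped body than in renal vesicle. The exception against the duct was Wnt4 (0.68, adjusted p = 0.0943), which averaged 11.19 in the renal vesicle and 10.51 in the duct. In the s-shaped body Lhx1, Wnt4, Cdh1 and Epcam averaged 6.79, 6.33, 6.18 and 5.94, below the array median of 7.28. All 5 tested podocyte markers were highest in the s-shaped body. Of 8 tested duct markers 6 were lower in the renal vesicle than in the duct. Wnt11 was higher there than in the duct (1.55, adjusted p = 0.002), and Hoxb7 was not called. Renal vesicle replicate 3 stood apart with a podocyte marker sum of 8841, where the other renal vesicle arrays had 2661 and 2149. Collecting duct replicate 2 had an erythroid marker sum of 2378, where the other duct arrays had 58.8 and 33.48, and both of these arrays were left out together in one alternative. For Gapdh, a control for RNA length, the 3' probe set exceeded the 5' one by 20.0 to 32.4 times in s-shaped body arrays and by 11.6 to 18.6 times in all others. For Actb, the other such control, the structures overlapped, at 30.1 to 50.9 times in s-shaped body arrays and 32.2 to 42.5 times in all others. The part of other cells and of RNA length in the differences that follow was not tested. In pooled tissue, fewer cells of a type and less RNA per cell cannot be told apart.

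**Figure D2:**
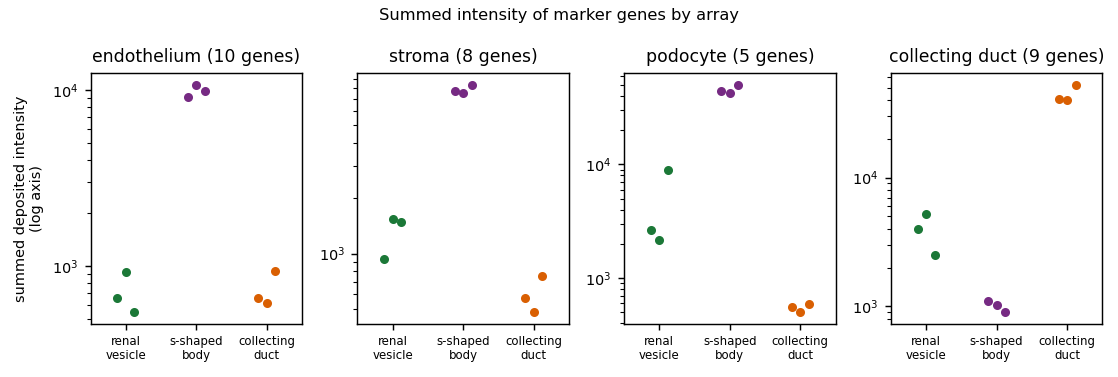
Summed deposited intensity of the endothelial, stromal, podocyte and collecting duct marker genes (log axis), 1 point per array. Endothelial and stromal sums are highest on the 3 s-shaped body arrays, and renal vesicle replicate 3 has the highest podocyte sum (8841) of its structure.

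The only tested Slit, Slit2, gave the clearest renal vesicle pattern among the tested ligands. Slit2, a secreted repellent, stood at 11.98, 11.82 and 12.01 in renal vesicle arrays, 9.92, 9.58 and 9.76 in s-shaped body arrays and 9.96, 10.27 and 10.12 in collecting duct arrays. The renal vesicle arrays lay above all 6 others. Slit2 was 3.54-fold higher in renal vesicle than in collecting duct (log2 difference 1.82, SE 0.16, adjusted p = 3.87e-06) and 4.54-fold lower in the s-shaped body than in the renal vesicle (-2.18, SE 0.16, adjusted p = 1.26e-06). S-shaped body and collecting duct did not differ past the threshold (-0.36, adjusted p = 0.111). Slit1 and Slit3 did not reach the intensity filter, Slit1 by 1 array. Without the filter, an alternative chosen after the data were examined, Slit1 read 7.85, 7.07 and 7.50 in the renal vesicle and no more than 6.07 on any other array. It was 3.14-fold higher in renal vesicle than in collecting duct (1.65, SE 0.31, adjusted p = 0.00315) and lower in the s-shaped body than in the renal vesicle (-1.97, adjusted p = 0.000901). Slit3 was dim, with 6.91, 5.48 and 6.59 in the renal vesicle and 5.10 to 5.46 elsewhere. It passed in that fit for renal vesicle against collecting duct (1.08, adjusted p = 0.03) and for s-shaped body against renal vesicle (-0.96, adjusted p = 0.0444).

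The measured Robo receptors split between the nephron stages. Robo1, a neuronal and epithelial Slit receptor, read 9.85, 10.17 and 10.50 in the renal vesicle, 9.60, 9.06 and 8.99 in s-shaped body and 8.65, 8.85 and 8.62 in the collecting duct. It was 2.77-fold higher in renal vesicle than in collecting duct (1.47, SE 0.21, adjusted p = 0.000249) and 1.94-fold lower in the s-shaped body than in the renal vesicle (-0.96, SE 0.21, adjusted p = 0.004). Slit2 and Robo1, a ligand and a receptor for it, were thus both highest in the renal vesicle. Robo4, the Robo of endothelium, followed the other pattern, with 8.79, 8.61 and 9.13 in s-shaped body arrays, 7.15, 7.36 and 7.12 in the renal vesicle and 6.92, 6.66 and 6.81 in the collecting duct. Its s-shaped body arrays lay above all others. Robo4 there was 4.13-fold over collecting duct (2.04, SE 0.19, adjusted p = 4.33e-06) and 3.10-fold over renal vesicle (1.63, SE 0.19, adjusted p = 4.67e-05). All tested endothelial (8), stromal (6), podocyte (5), erythroid (3) and macrophage (1) markers were also higher in these arrays. The part of any of these cells was not tested. Robo3 was below the array median on all arrays (5.71 to 6.78), and Robo2 was not analysed here.

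The 250 bases upstream of the start sites of 4 genes are shown as examples of both patterns, chosen after their values were seen, a ligand and a receptor highest in the renal vesicle (Slit2 and Epha7) and 2 receptors highest in the s-shaped body (Plxnd1 and Robo4). They are from RefSeq on GRCm38.p6, read 5′ to 3′ on the strand of the gene, and 48 of the 55 symbols had an entry. Slit2 lies at chr5:47982905-47983154 (plus strand), Epha7 at chr4:28812881-28813130 (plus strand, the first of 2 listed starts), Plxnd1 at chr6:115995006-115995255 (minus strand) and Robo4 at chr9:37401722-37401971 (plus strand). Both strands were searched for the GC box GGGCGG, the ETS core CCGGAA and the LIM homeobox letters TAATTA, and capitals mark the matches.
Slit2: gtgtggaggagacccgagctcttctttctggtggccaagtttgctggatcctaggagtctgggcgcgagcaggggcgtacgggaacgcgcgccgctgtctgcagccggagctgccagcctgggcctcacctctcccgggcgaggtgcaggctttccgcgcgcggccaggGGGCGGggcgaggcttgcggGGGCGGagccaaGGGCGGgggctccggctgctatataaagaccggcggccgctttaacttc
Epha7: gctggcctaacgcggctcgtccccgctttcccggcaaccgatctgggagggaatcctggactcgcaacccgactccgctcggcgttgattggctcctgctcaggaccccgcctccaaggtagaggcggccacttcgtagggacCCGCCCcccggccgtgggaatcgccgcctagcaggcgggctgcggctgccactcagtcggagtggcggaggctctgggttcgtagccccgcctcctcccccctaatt
Plxnd1: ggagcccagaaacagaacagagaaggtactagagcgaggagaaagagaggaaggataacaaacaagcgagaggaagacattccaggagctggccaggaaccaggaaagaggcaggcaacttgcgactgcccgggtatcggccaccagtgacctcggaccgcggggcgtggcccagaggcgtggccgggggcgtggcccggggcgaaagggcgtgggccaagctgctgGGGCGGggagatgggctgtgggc
Robo4: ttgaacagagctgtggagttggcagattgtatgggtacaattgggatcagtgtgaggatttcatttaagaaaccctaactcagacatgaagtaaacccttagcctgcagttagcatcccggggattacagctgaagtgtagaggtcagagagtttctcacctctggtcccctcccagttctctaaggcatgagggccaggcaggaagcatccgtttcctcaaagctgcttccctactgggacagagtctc
The GC box was found 3 times upstream of Slit2, once each upstream of Epha7 and Plxnd1, and not upstream of Robo4, and 32.7% of 32851 promoter windows of this length held it. The ETS core, held by 12.0% of windows, and the LIM homeobox letters, held by 4.84%, were in none of the 4. The GC content was 69.6%, 69.2%, 64.8% and 49.6% in the order shown. These matches describe the letters and bear on no factor.

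**Figure D3:**
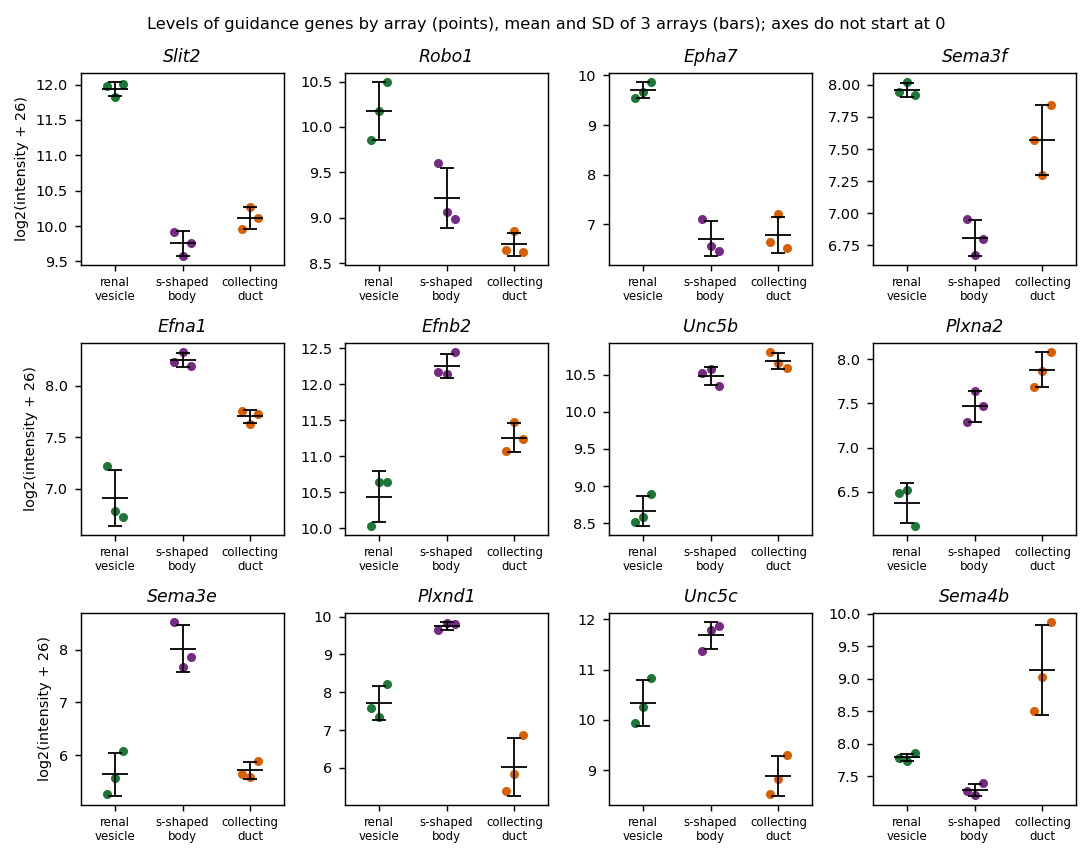
Levels of 12 guidance genes as log2(intensity + 26) by structure, with 1 point per array with the mean and SD of 3 arrays as bars. The top row falls from renal vesicle to s-shaped body (Slit2 from 11.94 to 9.75), the middle row is lowest in the renal vesicle, Sema3e, Plxnd1 and Unc5c are highest in s-shaped body and Sema4b in the collecting duct. The vertical axes do not start at 0.

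Of the class 3 semaphorins, the secreted members, 5 of 5 passed the F test, where 49.6% of all genes did, and 4 of 5 without the filter, where 33.1% did. Sema3e, a ligand of plexin D1, read 8.52, 7.67 and 7.85 in s-shaped body and 5.27 to 6.08 on the 6 other arrays. It was 4.93-fold higher in s-shaped body than in collecting duct (2.30, SE 0.30, adjusted p = 7.58e-05) and 5.19-fold higher than in the renal vesicle (2.37, SE 0.30, adjusted p = 8.02e-05). Sema3e had passed the filter only through the s-shaped body, where it is high, which favours a difference. Both calls stood in the fit without the filter (adjusted p = 0.000115 and 0.000138). Its other 2 probe sets, both dim, were also called higher in the s-shaped body in a fit over all probe sets (1.51 and 0.89 over collecting duct). Sema3f, a repellent that uses neuropilin-2, had 7.94, 8.02 and 7.92 in the renal vesicle, 6.95, 6.67 and 6.80 in s-shaped body and 7.57, 7.30 and 7.84 in the collecting duct. It was lower in the s-shaped body than in renal vesicle (-1.15, SE 0.20, adjusted p = 0.000703) and than in collecting duct (-0.76, SE 0.20, adjusted p = 0.0103). Sema3c, a cue known from heart and vessel development, ran from 7.79 to 7.92 in the collecting duct, 7.03 to 7.46 in the renal vesicle and 6.28 to 6.88 in the s-shaped body. The 3 ranges did not overlap. Sema3c was 2.53-fold lower in s-shaped body than in collecting duct (-1.34, SE 0.23, adjusted p = 0.000562). Its fall from renal vesicle to s-shaped body (-0.82, adjusted p = 0.0132) was lost without renal vesicle replicate 2 (-0.76, adjusted p = 0.0537) or s-shaped body replicate 2 (-0.72, adjusted p = 0.0535).

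Sema3a, a semaphorin known to restrain ureteric branching, read 8.46, 9.19 and 9.04 in the renal vesicle, 7.93, 8.23 and 8.19 in s-shaped body and 8.18, 8.57 and 7.87 in the collecting duct. Renal vesicle and collecting duct overlapped. The difference of 0.69 between them (SE 0.23, adjusted p = 0.0411) kept its call in 2 of the 9 fits that left out 1 array, those without renal vesicle replicate 1 or collecting duct replicate 2, and was 0.52 to 0.91 with adjusted p = 0.015 to 0.157 over all 9. Sema3a was lower in s-shaped body than in renal vesicle (-0.78, adjusted p = 0.0204), a call lost without renal vesicle replicate 2 (-0.63, adjusted p = 0.0921), renal vesicle replicate 3 (-0.71, adjusted p = 0.0596) or s-shaped body replicate 1 (-0.69, adjusted p = 0.0771). Sema3b, known as a tumour suppressor, was 2.00-fold lower in renal vesicle than in collecting duct (SE 0.25 log2 units, adjusted p = 0.00908), at 7.20, 7.47 and 7.44 against 7.90, 8.26 and 8.95. Its s-shaped body level of 7.86 ± 0.20 (SD, n = 3) lay between these, and its difference from collecting duct (-0.51, adjusted p = 0.142) passed only without collecting duct replicate 1 (-0.75, adjusted p = 0.0351), among the fits that left out 1 array.

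Of the membrane-bound semaphorins, 7 of 9 tested passed the F test (49.6% of all genes), and 7 of 12 without the filter (33.1%). They divided by structure. Sema4a and Sema4b were highest in the collecting duct. Sema4b had 8.51, 9.03 and 9.87 there, against 7.79, 7.74 and 7.85 in the renal vesicle and 7.27, 7.22 and 7.40 in the s-shaped body, with no overlap. It was 2.54-fold lower in renal vesicle (-1.34, SE 0.28, adjusted p = 0.00277) and 3.58-fold lower in s-shaped body (-1.84, SE 0.28, adjusted p = 0.000219). Between the nephron stages Sema4b was called only without collecting duct replicate 3 (-0.50, adjusted p = 0.0425), of the fits that left out 1 array. Sema4a, with 8.30, 8.41 and 8.63 in the collecting duct and 6.66 to 7.67 on the other arrays, differed by -1.34 and -0.97 (adjusted p = 0.000886 and 0.00644). Sema4d, a ligand of plexin B receptors, and Sema4f were instead lowest in the s-shaped body. Sema4d read 7.68, 7.41 and 7.43 there against 8.36 to 8.90 on all other arrays (s-shaped body minus renal vesicle -1.20, SE 0.18, adjusted p = 0.000317, and minus collecting duct -1.12, adjusted p = 0.000451). Sema4f read 6.33, 6.57 and 6.69 there and 7.09 to 7.67 elsewhere (-0.92, adjusted p = 0.00863, and -0.81, adjusted p = 0.0182). The latter Sema4f call was lost without s-shaped body replicate 1 (-0.71, adjusted p = 0.0643) and also without collecting duct replicate 2 (-0.67, adjusted p = 0.0848).

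Sema5a, Sema6d and Sema7a were higher in the s-shaped body than in the renal vesicle. Sema5a, a semaphorin with thrombospondin repeats, was below the array median in the collecting duct at 5.74, 5.50 and 5.56, and read 7.74, 7.33 and 8.12 in the renal vesicle and 8.89, 8.25 and 8.47 in the s-shaped body. It was 4.38-fold and 7.66-fold higher in these stages than in the duct (2.13 and 2.94, SE 0.25 each, adjusted p = 4.1e-05 and 1.59e-06). The step between the stages (0.81, adjusted p = 0.0229) was lost without renal vesicle replicate 1 (0.81, adjusted p = 0.0603) or 2 (0.60, adjusted p = 0.107), or s-shaped body replicate 1 (0.63, adjusted p = 0.101) or 3 (0.84, adjusted p = 0.0515). The second Sema5a probe set showed no such change (renal vesicle minus collecting duct -0.17, adjusted p = 0.704). Sema7a, a lipid-anchored semaphorin that binds plexin C1 and integrins, had 8.64, 8.92 and 8.67 in s-shaped body and 6.52 to 7.69 elsewhere, 3.08-fold over collecting duct (1.62, SE 0.27, adjusted p = 0.000529) and 2.73-fold over renal vesicle (1.45, adjusted p = 0.00133). Sema6d was higher in s-shaped body than in renal vesicle (0.90, SE 0.22, adjusted p = 0.00721), at 7.42, 7.36 and 7.93 against 6.45, 6.77 and 6.79. It too had passed the filter only through the s-shaped body, and the call stood without the filter (adjusted p = 0.011). Sema6c (7.84 to 8.46 on the 9 arrays) and Sema4g (6.96 to 8.08) did not pass the F test. Sema4g did pass without renal vesicle replicate 3 for both structures against the duct (-0.91, adjusted p = 0.0134, and -0.63, adjusted p = 0.0372). Sema5b, Sema6a and Sema6b did not reach the filter and, without it, were called in no comparison.

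Of the tested plexins, the semaphorin receptors, 3 of 6 passed the F test, and 3 of 7 without the filter, where 49.6% and 33.1% of all genes did. Plxnd1, the receptor of Sema3e known from endothelium, stood at 9.63, 9.83 and 9.80 in the s-shaped body, at 7.57, 7.35 and 8.21 in the renal vesicle and at 5.38, 5.83 and 6.87 in the collecting duct. No 2 structures overlapped, and the collecting duct arrays spread most (SD 0.77). Plxnd1 was 13.2-fold higher in s-shaped body than in collecting duct (3.73, SE 0.34, adjusted p = 2.81e-06), 4.12-fold higher than in renal vesicle (2.04, adjusted p = 0.000535) and 3.21-fold higher in renal vesicle than in collecting duct (1.68, adjusted p = 0.0023). Sema3e and Plxnd1, a ligand and its receptor, were thus both higher in s-shaped body than in renal vesicle. All tested endothelial (8), stromal (6), podocyte (5), erythroid (3) and macrophage (1) markers were higher there too. Between renal vesicle and collecting duct 2 of 8 tested endothelial markers were higher and 1 was lower. In that comparison 3 of 6 stromal and 2 of 5 podocyte markers were higher, and no erythroid or macrophage marker was called. The part of any of these cells in the differences was not tested.

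Plxnc1, the receptor of Sema7a, ran the other way between the stages, with 8.11, 8.02 and 8.20 in the renal vesicle, 6.86, 7.43 and 7.34 in s-shaped body and 6.84, 6.17 and 6.51 in the collecting duct. It was 3.03-fold higher in renal vesicle than in collecting duct (1.60, SE 0.23, adjusted p = 0.000247) and lower in s-shaped body than in renal vesicle (-0.89, adjusted p = 0.00977). Its rise from collecting duct to s-shaped body (0.71, adjusted p = 0.0346) was lost in 5 of the 9 fits that left out 1 array, where it was 0.54 to 0.88. These 5 left out renal vesicle replicate 1 (adjusted p = 0.0517), s-shaped body replicate 2 or 3 (adjusted p = 0.129 and 0.103), or collecting duct replicate 2 or 3 (adjusted p = 0.135 and 0.0531). Plxna2, a receptor of class 3 and class 6 semaphorins, was lowest in the renal vesicle at 6.48, 6.52 and 6.11, against 7.29, 7.64 and 7.47 in s-shaped body and 7.69, 7.87 and 8.08 in the collecting duct. It was 2.84-fold lower in renal vesicle than in collecting duct (-1.51, SE 0.21, adjusted p = 0.000178) and 2.13-fold higher in s-shaped body than in renal vesicle (1.09, adjusted p = 0.00157). Plxna3, Plxnb2 and Plxnb3 did not pass the F test, and Plxna1 did not reach the filter. Plxnb2 passed without collecting duct replicate 3 for s-shaped body against collecting duct (0.68, adjusted p = 0.0193) and against renal vesicle (0.54, adjusted p = 0.0279), and without renal vesicle replicate 3 for the latter (0.73, adjusted p = 0.0283).

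**Figure D4:**
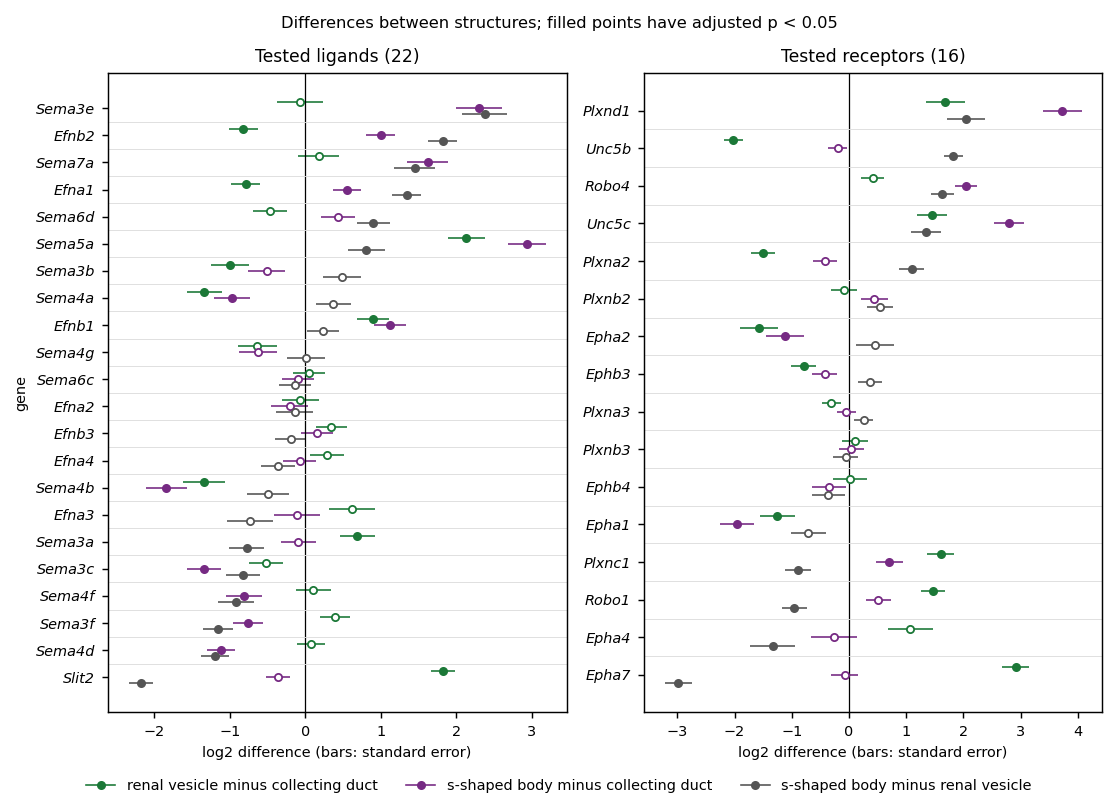
Log2 differences of the 22 tested ligands and 16 tested receptors in the 3 comparisons, with standard errors as bars and filled points where adjusted p was under 0.05, ordered by s-shaped body minus renal vesicle. Slit2 and Epha7 stand at the lower end (-2.18 and -2.99), Sema3e and Plxnd1 at the upper end (2.37 and 2.04).

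Of the tested ephrins 3 of 7 passed the F test, and 3 of 8 without the filter, where 49.6% and 33.1% of all genes did. Efnb2, a transmembrane ephrin of arteries and glomerular vessels, was lowest in the renal vesicle at 10.03, 10.63 and 10.65, intermediate in the collecting duct at 11.07, 11.47 and 11.24 and highest in the s-shaped body at 12.18, 12.14 and 12.45. It was 1.77-fold lower in renal vesicle than in collecting duct (-0.82, SE 0.19, adjusted p = 0.00661), yet 2.00-fold higher in s-shaped body than in collecting duct (1.00, SE 0.19, adjusted p = 0.0016), and rose 3.53-fold between the stages (1.82, adjusted p = 1.99e-05). A second probe set of Efnb2 gave -0.99, 0.48 and 1.47, of which the middle one was not past the threshold (adjusted p = 0.287), and its other 2 probe sets gave no call. Efna1, an ephrin anchored by lipid and known from vessels, had the same order, with 7.22, 6.79 and 6.72, then 7.76, 7.63 and 7.72, then 8.23, 8.33 and 8.20. It was lower in renal vesicle than in collecting duct (-0.79, SE 0.19, adjusted p = 0.00676) and higher in s-shaped body than in renal vesicle (1.34, adjusted p = 0.000163). The rise of Efna1 from collecting duct to s-shaped body (0.55, adjusted p = 0.0411) kept its call in 2 of the 9 fits that left out 1 array, those without renal vesicle replicate 1 or 3, with values of 0.51 to 0.58 and adjusted p = 0.0324 to 0.125 over all 9.

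Efnb1, a transmembrane ephrin of many epithelia and mesenchymes, was instead higher in both nephron stages. It read 9.81, 9.77 and 10.08 in the renal vesicle and 9.97, 10.15 and 10.24 in the s-shaped body, above 8.63, 8.88 and 9.47 in the collecting duct. The differences from the duct were 0.90 (SE 0.21, adjusted p = 0.007) and 1.13 (adjusted p = 0.00134), and its 3 probe sets were all called higher in both. With renal vesicle replicate 3 and collecting duct replicate 2 left out together, the first of these was 0.74 and no longer a call (adjusted p = 0.0847). Efna2 (6.83 to 7.61 over the 9 arrays), Efna3 (6.22 to 7.75), Efna4 (6.78 to 7.46) and Efnb3 (7.72 to 8.59) were not called in any comparison. Efna3 became a call without collecting duct replicate 3 for renal vesicle against collecting duct (0.93, adjusted p = 0.0253), and without collecting duct replicate 1 (adjusted p = 0.0245) or 3 (adjusted p = 0.0351) for s-shaped body against renal vesicle (-0.73 in both). Efna5 was dim, at 4.93 to 5.68.

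Among Eph receptors 5 of 6 tested passed the F test, where 49.6% of all genes did, but Epha1, Epha4 and Epha7 had passed the filter only through the structure where they are high. Without the filter 4 of 11 passed, where 33.1% of all genes did. Epha7, a receptor of ephrin-A ligands, read 9.55, 9.68 and 9.87 in the renal vesicle, 7.11, 6.56 and 6.46 in s-shaped body and 6.64, 7.20 and 6.51 in the collecting duct. It was 7.52-fold higher in renal vesicle than in collecting duct (2.91, SE 0.24, adjusted p = 2.15e-06) and 7.92-fold lower in s-shaped body than in renal vesicle (-2.99, SE 0.24, adjusted p = 2.18e-06). Of its other probe sets 1 was called in the same directions (1.33 and -1.20) and 1 gave no call. Epha4, a receptor of both ephrin classes, shared the order at 7.65, 7.76 and 7.86, then 6.77, 5.33 and 7.17, then 7.15, 6.42 and 6.48, with s-shaped body replicate 2 far below the others. Its fall from renal vesicle to s-shaped body (-1.33, SE 0.40, adjusted p = 0.0203) was -0.79 without that array (adjusted p = 0.0551) and was also lost without renal vesicle replicate 2 (-1.33, adjusted p = 0.0537) or 3 (-1.28, adjusted p = 0.0514). Renal vesicle against collecting duct was not past the threshold for Epha4 (1.07, adjusted p = 0.059). It passed without s-shaped body replicate 2 (adjusted p = 0.00815) or 3 (adjusted p = 0.0407), or without collecting duct replicate 1 (1.31, adjusted p = 0.0387). A second Epha4 probe set gave a call in both comparisons in the fit over all probe sets (1.22, adjusted p = 0.015, and -1.69, adjusted p = 0.00209).

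Epha1 and Epha2 were higher in the collecting duct than in both nephron stages, and Ephb3 than in the renal vesicle. Epha2, an epithelial receptor of ephrin-A1, had 8.70, 8.97 and 9.91 there, 7.31, 7.59 and 7.96 in the renal vesicle and 8.46, 7.49 and 8.27 in the s-shaped body. It was 2.98-fold lower in renal vesicle than in collecting duct (-1.58, SE 0.33, adjusted p = 0.00295). Its fall in the s-shaped body (-1.12, adjusted p = 0.0196) was lost without s-shaped body replicate 2 (-0.83, adjusted p = 0.0939) and also without collecting duct replicate 3 (-0.76, adjusted p = 0.0598). Epha1, an epithelial Eph receptor, read 7.35, 7.56 and 7.42 in the duct and 4.84 to 6.36 elsewhere (-1.25, adjusted p = 0.00735, and -1.96, adjusted p = 0.000266). The former was not a call with renal vesicle replicate 3 and collecting duct replicate 2 left out together (-1.19, adjusted p = 0.065). That probe set was the one past the filter, while another, brighter on average but below the array median on every array, gave -0.10 and -0.35 with no call. The third gave 0.65 and 0.25 with no call. Epha1 did not differ past the threshold between the stages (-0.71, adjusted p = 0.0864), but passed narrowly without s-shaped body replicate 2 (-0.92, adjusted p = 0.0498), and was -0.39 without s-shaped body replicate 3. Ephb3, known from intestinal crypts, ran from 9.65 to 10.19 in the collecting duct, 9.41 to 9.59 in s-shaped body and 8.73 to 9.51 in the renal vesicle. Its s-shaped body minus collecting duct difference did not pass (-0.43, adjusted p = 0.155), and its fall in the renal vesicle (-0.79, adjusted p = 0.0142) was lost without renal vesicle replicate 1 (-0.59, adjusted p = 0.0684) and also without collecting duct replicate 2 (-0.66, adjusted p = 0.0684). Ephb4, the venous partner of ephrin-B2, was near the array median (6.40 to 7.56) and its 3 differences lay between -0.36 and 0.02 with no call. Ephb6, Epha3, Epha5, Epha6 and Epha8 did not reach the filter, and of these Ephb6 was called without it, lower in both nephron stages than in the duct (-0.86, adjusted p = 0.0419, and -1.21, adjusted p = 0.00679).

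Both Unc5 receptors passed the F test, with and without the filter, where 49.6% and 33.1% of all genes did. The other netrin receptors were called in no comparison, and the netrins were dim. Dcc read 6.53 to 7.44 over the 9 arrays (differences -0.38, -0.33 and 0.05, adjusted p = 0.264, 0.339 and 0.901). Neo1, neogenin, read 8.12 to 9.62 (0.23, 0.25 and 0.02, adjusted p = 0.616, 0.593 and 0.972). Unc5b, a netrin receptor known from endothelium, stood at 8.52, 8.58 and 8.89 in the renal vesicle, 10.53, 10.58 and 10.35 in s-shaped body and 10.81, 10.66 and 10.59 in the collecting duct. The renal vesicle arrays lay below all others, 4.05-fold under collecting duct (-2.02, SE 0.17, adjusted p = 2.25e-06), and s-shaped body was 3.54-fold above renal vesicle (1.82, SE 0.17, adjusted p = 5.91e-06). The collecting duct arrays did not differ past the threshold from the s-shaped body arrays in Unc5b (-0.20, SE 0.17, adjusted p = 0.407). Unc5c, a related receptor known for netrin repulsion, read 9.93, 10.25 and 10.84 in the renal vesicle, 11.37, 11.79 and 11.87 in s-shaped body and 8.52, 8.82 and 9.30 in the collecting duct. No 2 structures overlapped. It was 2.75-fold higher in renal vesicle than in collecting duct (1.46, SE 0.26, adjusted p = 0.00108), 6.95-fold higher in s-shaped body than in collecting duct (2.80, adjusted p = 3.73e-06) and 2.53-fold higher in s-shaped body than in renal vesicle (1.34, adjusted p = 0.00167). A second Unc5c probe set gave 1.99, 2.65 and 0.66, of which the last was not past the threshold (adjusted p = 0.0618). Ntn1 (5.85 to 6.65), Ntn3 (5.90 to 6.62) and Ntn4 (4.80 to 5.24) were below the array median on all 9 arrays and were called in no comparison without the filter. Unc50, which is no guidance gene, read 10.54 to 11.91 and was lower in renal vesicle than in collecting duct (-0.66, adjusted p = 0.038).

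Set side by side over the structures, renal vesicle levels exceeded both others for 5 tested guidance genes (Slit2, Robo1, Epha7, Plxnc1 and Sema3a), where 8.23% of all genes were. In the s-shaped body 8 were higher than in both others (Efna1, Efnb2, Plxnd1, Robo4, Sema3e, Sema5a, Sema7a and Unc5c), where 10.8% of all genes were, and in the collecting duct 4 (Epha1, Epha2, Sema4a and Sema4b), where 8.25% were. The renal vesicle was lowest for 4 (Efna1, Efnb2, Plxna2 and Unc5b) and the s-shaped body for 4 (Sema3c, Sema3f, Sema4d and Sema4f), where 6.30% and 6.74% of all genes were. The collecting duct was lowest for 5 (Efnb1, Plxnc1, Plxnd1, Sema5a and Unc5c), where 6.11% were, and 14 genes had none of these patterns. Epha7, Sema3e and Epha1 had passed the filter only through the structure where they were highest, which favours these patterns. The Epha7 and Sema3e calls stood without the filter, but the patterns were not counted without it. Some patterns rest on calls lost in fits that left out a single array. Sema3a (renal vesicle against duct) and Efna1 (s-shaped body against duct) kept theirs in 2 of 9 such fits. In the latter comparison Plxnc1 kept its call in 4, and Epha2 and Sema4f in 7. Between the stages Sema5a kept it in 5, Sema3a in 6 and Sema3c in 7. Without the filter the Sema3a call against the duct and these Efna1 and Plxnc1 calls were lost. Both Epha1 calls against the duct were lost too (-0.10 and -0.35, another probe set). The 4 genes lowest in the s-shaped body are semaphorins, of which 5 class 3 and 9 other members were among the 38 tested genes. Of the 8 highest there 5 are ligands and 3 receptors, where 22 ligands and 16 receptors were tested.

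Co-receptors and effectors of the same pathways were taken from a list of other genes, of which 46 were on the array and 36 tested. Between renal vesicle and collecting duct 6 were higher and 9 lower (41.7% in all, against 31.5% of all genes), and between s-shaped body and collecting duct 8 and 9 (47.2% against 32.8%). Between s-shaped body and renal vesicle 12 were higher and 3 lower (41.7%, against 36.3% of all genes, of which 18.5% were higher and 17.8% lower). Nrp1, neuropilin-1, the co-receptor of class 3 semaphorins, averaged 7.49 ± 0.45 in collecting duct, 10.80 ± 0.56 in renal vesicle and 12.72 ± 0.12 in s-shaped body (SD, n = 3). It was higher in both nephron stages than in the duct (3.32 and 5.24, SE 0.28, adjusted p = 2.92e-06 and 4.26e-08) and rose between them (1.92, adjusted p = 0.000223). Mical1, an actin-oxidising enzyme that acts downstream of plexins, was higher in both stages than in the duct (2.72 and 3.11, SE 0.15, adjusted p = 1.04e-07 and 2.23e-08). Srgap3, a Robo effector, and L1cam, an adhesion molecule that works with neuropilin-1, were lower in renal vesicle than in collecting duct (-1.54 and -2.07, adjusted p = 8.16e-05 and 8.27e-05). Gpc1, a glypican that binds Slit, and Dag1, dystroglycan, another Slit-binding protein, were higher in s-shaped body than in collecting duct (3.09 and 1.48, adjusted p = 9.13e-06 and 6.09e-06). From renal vesicle to s-shaped body, the smallest adjusted p-values beside that of Nrp1 were those of Plxdc2 (2.19, SE 0.18, adjusted p = 2.64e-06), a plexin-domain membrane protein, Dag1 (1.36, adjusted p = 2.14e-05) and Vasp (1.28, adjusted p = 0.000259), an actin regulator.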

How the data were processed

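Affymetrix MOE430A arrays, 3 per structure, had been hybridised with RNA put through 2 rounds of amplification. The deposited values are linear intensities per probe set, made with GCOS per the submitters' processing notes, whose version and algorithm are not given in the sources used here. The values were scaled by the authors so that the trimmed mean of each array is 500.2 to 500.3, as found in the deposited intensities. Array medians were 112.3 to 144.8, and 3 arrays per structure limit the precision. No detection calls were used.

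Of 22690 probe sets, 64 controls were left out and 20380 carried a single symbol in the platform annotation of GEO, which can be old (691 carried several and 1555 none). log2(intensity + 26), 26 being the 20th percentile of all values, was quantile normalized. Probe sets above the array median on at least 3 arrays were kept (12588), with the one of highest mean over 9 arrays for a gene. limma 3.58.1 in R 4.3.3 fitted the 3 structures over all 9 arrays (6 residual degrees of freedom, intensity trend, no covariates), with Benjamini-Hochberg adjustment over 7998 genes. Fold changes are on the log2(intensity + 26) scale, which understates changes of dim genes. Second probe sets were compared in a fit over all probe sets without the filter. Of the 55 members 25 had several probe sets, and no member had probe sets called in opposite directions in the same comparison. Not all of them are given above, among them those of Slit2, Plxnc1, Sema4a, Sema4b, Sema4d, Sema7a and Efna1. The fits that left out arrays kept the normalized values and genes of the full set. The scripts were tested on simulated data.

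The members and gene lists were chosen with earlier results of these data known. Per-array values were given for up to 4 genes per family with the largest difference among those past the F test and for a set of named anchors, other members were summarised, and up to 4 partner genes per comparison were named by adjusted p. Some genes beyond that rule were given array values after their values were seen. Alternatives covered the pseudocount, normalization, filter, probe set, trend, array weights, replicate block, minimum fold and arrays left out.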

Additional observations from a re-analysis of the deposited data

Results flagged for a closer look

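Efna1 and Efnb2 were called in opposite directions against the collecting duct in the 2 nephron stages, lower in the renal vesicle and higher in the s-shaped body. The difference between the stages, tested in the same fit (limma, Benjamini-Hochberg), was 1.34 log2 units for Efna1 (SE 0.19, adjusted p = 0.000163) and 1.82 for Efnb2 (SE 0.19, adjusted p = 1.99e-05). Both genes were picked for these opposed calls, which share the duct arrays. A difference between the stages follows from that choice, so its p-value adds no separate support. All 3 s-shaped body arrays lay above all 3 renal vesicle arrays for both genes. The Efna1 call for s-shaped body against collecting duct (0.55, adjusted p = 0.0411) was lost in 7 of 9 fits that left out 1 array and without the intensity filter (adjusted p = 0.0642). A second Efnb2 probe set did not pass for that comparison (0.48, adjusted p = 0.287).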

How the results depend on the processing

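Of 114 differences of single guidance genes 58 were called, and no call changed sign under any alternative run. Apart from the minimum fold of 2, which 39 of the 58 met, 45 kept their call in every alternative that tested them and 13 lost it somewhere; the filter of at least 6 arrays tested 41 of the 58. Leaving out 1 array gave 18 to 19 changed guidance genes for renal vesicle against collecting duct, 15 to 19 for s-shaped body against collecting duct, 17 to 24 for s-shaped body against renal vesicle and 24 to 30 by the F test. Leaving out renal vesicle replicate 3 and collecting duct replicate 2 together gave 17, 16, 19 and 26. Asking for intensity above the array median on at least 6 arrays gave 13 guidance genes for s-shaped body against renal vesicle, where fewer members were tested. With the minimum fold of 2, 6 partner and effector genes changed in that comparison. Array weights, whose estimation stopped before convergence, gave 25, 25 and 24 guidance genes. With the replicate block the counts were 20, 17 and 22, and 57 of the 58 calls were shared. Deviations from the structure means correlated over 0.1 for 5 of 9 pairs of same-numbered arrays (-0.034 to 0.161) and for 1 of 18 pairs with different numbers. Since not every same-numbered pair was over 0.1 and the labels name nothing shared, replicate numbers were not treated as pairs. The block ended the call of Plxnc1 for s-shaped body against collecting duct (0.71, adjusted p = 0.0515), and made calls of Epha4 for renal vesicle against collecting duct (1.07, adjusted p = 0.0433) and Plxnb2 for s-shaped body against renal vesicle (0.54, adjusted p = 0.0363). Intensities near background limit what can be said of the 16 dim guidance genes.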
